A study of Homo sapiens with 28 samples.

Results

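Interferon-stimulated genes and the sensors of foreign RNA and DNA form the antiviral programme of a cell, and a short hairpin RNA, a lentivirus or the loss of a factor that handles RNA could in principle set it off. The 37 genes described here were listed by their known function, not by a threshold on these values, and 36 of them were measured among the 18417 genes of the arrays (STAT2 was not analysed here). Double-stranded RNA in the cytoplasm is bound by sensors such as IFIH1 (also called MDA5) and by the kinase EIF2AK2 (PKR), and the sensors lead to the secretion of type I interferon. Interferon then acts through its receptor on a complex that holds STAT2 and IRF9 and binds the interferon-stimulated response element (ISRE) in the promoters of the genes that carry out the antiviral response.

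The cells were HEK293, a human embryonic kidney line that carries adenovirus genes, and each array is of cells that received a lentiviral shRNA expressed from the U6 promoter and were collected after 6 days in puromycin. In the first array series the hairpins were directed against CLP1, a kinase of the mRNA cleavage machinery and of tRNA splicing, against the paralogous RNA helicases DDX5 and DDX17 and against HNRNPL, a splicing regulator (3 arrays each, a different hairpin on each), and against CPSF6, a subunit of cleavage factor I (1 array), with 1 array of a lacZ hairpin, which has no human target, as control. In the second series they were directed against PABPC1, the cytoplasmic poly(A)-binding protein, PARP1, a DNA break sensor, PRKDC, the kinase that joins DNA ends with the Ku proteins, and SUPT16H, the larger part of the FACT complex, which moves histones (3 arrays each), with 2 lacZ arrays. All cells, the control included, thus carried a hairpin and a virus and had been exposed to puromycin, so a response that every hairpin raises equally would not appear in any of the comparisons. The study kept the hairpins that lowered their target most.

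All 25 knockdown arrays were below lacZ for their own target, by unequal amounts. The log2 difference was -0.63 to -0.52 with CLP1, -1.51 to -1.16 with DDX17, -1.30 to -0.84 with DDX5 and -1.26 to -0.60 with HNRNPL. It was -1.37 with CPSF6, -2.41 to -1.80 with PABPC1, -1.35 to -0.98 with PARP1, -2.41 to -2.12 with PRKDC and -2.13 to -1.97 with SUPT16H. The lacZ array of the first series and lacZ replicate 1 of the second differed by an SD of only 0.07 log2 over the probesets, against 0.203 to 0.775 between hairpins of one gene, and were taken to be 1 sample that had been normalized with each series. The array of DDX5 hairpin 3 stood apart from its series, since it was the highest of the 14 first-series arrays for 32.68% of all genes. Of the 8 listed HEK293 markers 7 were measured, EPCAM and KRT8 among them, at mean log2 intensities of 5.76 to 10.99. For blood cells, 6 of 8 listed markers were measured, at means from 3.58 (PTPRC, the pan-leukocyte marker) to 5.77 (CD14). The 7 markers of fibroblasts and endothelium had means of 3.66 to 6.81, so these lists overlapped the HEK293 list in level. The summed signal of the blood markers was 7.12 to 7.81 in knockdown arrays and 7.54 to 7.91 in lacZ arrays on the log2 scale. Its part in the results was not tested. Single markers moved with the groups: the blood marker CD14, of monocytes, was called lower in 6 of the 8 knockdowns (-1.19 to -0.68), NEFL, a neurofilament of HEK293 cells, in all 4 of the second series (-2.04 to -1.19) and in DDX17, and LHX1, a kidney factor, in CLP1, DDX17 and HNRNPL. The blood list as a whole did not follow CD14 in the second series: 5 of its 6 markers were above lacZ with PABPC1, PRKDC and SUPT16H and 4 of 6 with PARP1, its median was 0.07 to 0.19, and 1, HBB, was called higher, with PRKDC. Nor did the HEK293 list follow NEFL throughout that series. With PARP1 and with SUPT16H 4 of its 7 markers were above lacZ, and with PABPC1 and with PRKDC 2 of 7. In each first-series knockdown 1 of the 7 was above lacZ. EPCAM was also called lower with PRKDC (-0.76). All samples are cultures of 1 cell line, and fewer cells with a marker and less of its RNA per cell cannot be told apart in bulk.

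The ISRE, the element through which interferon reaches these promoters, was searched as GAAA-NN-GAAA, where NN is any pair of bases, on both strands of the window from 250 bases before to 50 bases after each gene start (RefSeq, GRCh38.p14). A promoter sequence was at hand for 28 of the 36 genes, and 20 of these (71.4%) held the motif, against 4.38% of all 27305 genes with a promoter sequence. No entry was at hand for IFIT2, IFITM2, IRF7, MX2, OAS2, OASL, TRIM22 and USP18. A site is given for each of 6 genes on which the results turn, with the motif in capitals and each read on the strand on which it matches:
IFI44L: agtgagGAAAAAGAAAgttagt
IFIH1: agaatcGAAACAGAAAccaaag
EIF2AK2: caagggGAAAACGAAActgaga
IFI6: agagggGAAAATGAAActgcag
IFIT1: aaagggGAAAGTGAAActaaag
IFITM1: ttctgaGAAACTGAAAcgacag

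Coordinates span the printed stretch, and distances run from the gene start to the far end of its motif. The IFI44L site lies at chr1:78620369-78620390 on the plus strand, at a distance of 73 bases, and the same letters occur again at 164 bases. The IFIH1 site (chr2:162318690-162318711, minus strand) and the EIF2AK2 site (chr2:37156971-37156992, minus strand) lie at 21 and 6 bases. Those of IFI6 (chr1:27672292-27672313, minus strand), IFIT1 (chr10:89392501-89392522, minus strand, which is opposite to the gene) and IFITM1 (chr11:314028-314049, plus strand) lie at 115, 116 and 6 bases. IFIH1, IFI6, IFIT1 and IFITM1 held further matches in the window. IFI16, IRF9, TRIM25, ADAR, OAS1, IFI35, IRF1 and XAF1 held no match in this window.

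Knockdown did not raise the programme as a whole in any of the 8 genes with 3 hairpins. Each knockdown was compared with the lacZ control of the same series in limma over all 18417 genes, and a gene was called at a Benjamini-Hochberg adjusted p under 0.05. Of the 288 pairs of a gene and a knockdown 25 were called, 7 as rises and 18 as falls. That is 1.39% of the pairs of the first series and 16% of those of the second, close to the 1.6% and 14.1% of pairs called over all genes. None of the 288 differences exceeded 1 log2 unit above lacZ, and the highest was 0.90, for TRIM22 in CLP1 knockdown. The median difference of the 36 genes lay between -0.09 and 0.03 log2 in the first series and between -0.01 and 0.09 in the second. Over all genes the medians were of like size, from -0.01 in HNRNPL to 0.10 in PRKDC knockdown.

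The counts by knockdown are given beside the share of all genes called. With CLP1, 1 of 36 was called higher and 0 lower (0.337% and 0.619% of all genes, 0.956% in either direction), and with DDX17 0 were called higher and 1 lower (1.22% and 1.56%, 2.77% in either direction). With DDX5 limma called 0 of 36 (0.174% of all genes higher and 0.668% lower, 0.842% in all) and with HNRNPL also 0 (0.7% higher and 1.13% lower, 1.84% in all), and 2 of 36 were at an unadjusted p under 0.05 in each. In the second series 1 rose and 3 fell with PABPC1 (1.73% and 4.02% of all genes), and 1 rose and 2 fell with PARP1 (2.46% and 2.98%). SUPT16H knockdown gave 0 rises and 2 falls (3.77% and 5.76% of all genes). PRKDC knockdown, in which 35.7% of all genes were called, gave 4 rises and 10 falls (19.6% and 16.1% of all genes). Leaving out single arrays lowered most of these counts. Without lacZ replicate 1 or 2 there were 1 and 6 calls with PRKDC, 0 in both cases with PARP1, 1 in both with PABPC1 and 1 in both with SUPT16H. Without 1 of the knockdown's own hairpins there were 9 to 12 with PRKDC, 1 with PARP1, 1 to 3 with PABPC1 and 1 to 2 with SUPT16H. Calls in PRKDC knockdown depended on signal level over all genes: 30.47% of the genes in the lowest quartile of signal were called higher and 3.28% lower, while in the highest quartile 7.04% were called higher and 32.19% lower.

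**Figure D1:**
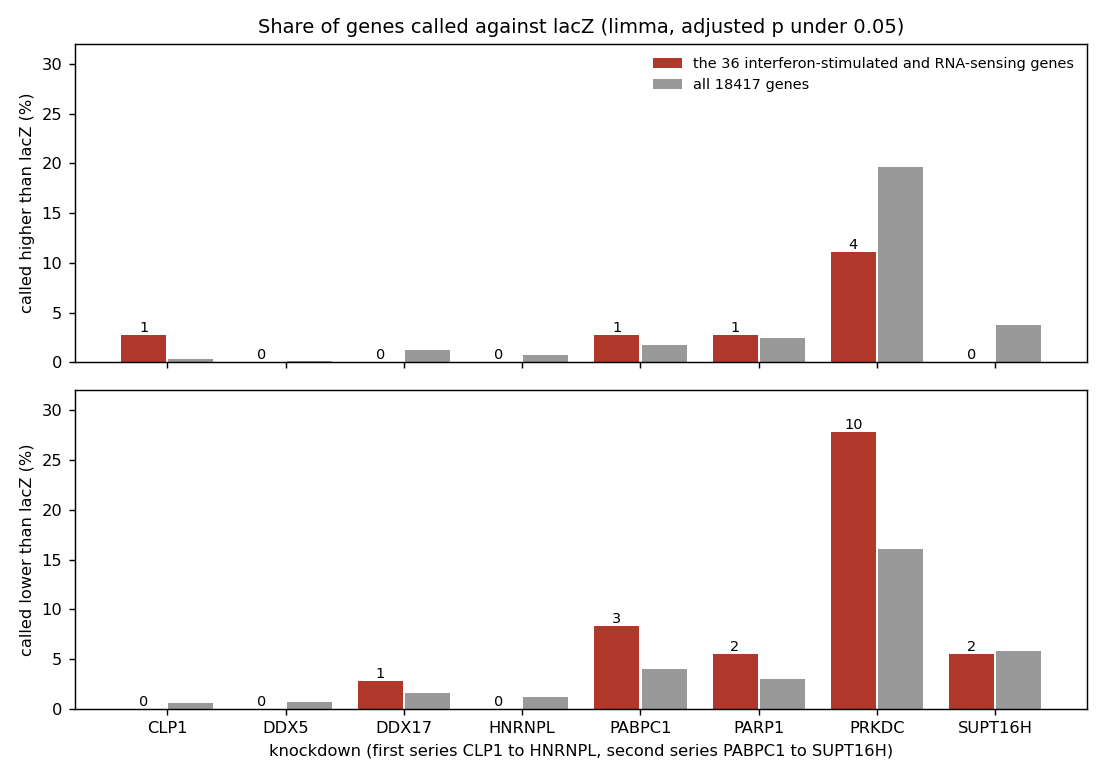
Share of genes called higher (upper panel) and lower (lower panel) than lacZ in each knockdown, in percent, for the 36 interferon-stimulated and RNA-sensing genes (red, with their number) and for all 18417 genes (grey). PRKDC knockdown had the most calls in both sets, 4 rises and 10 falls among the 36.

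**Figure D2:**
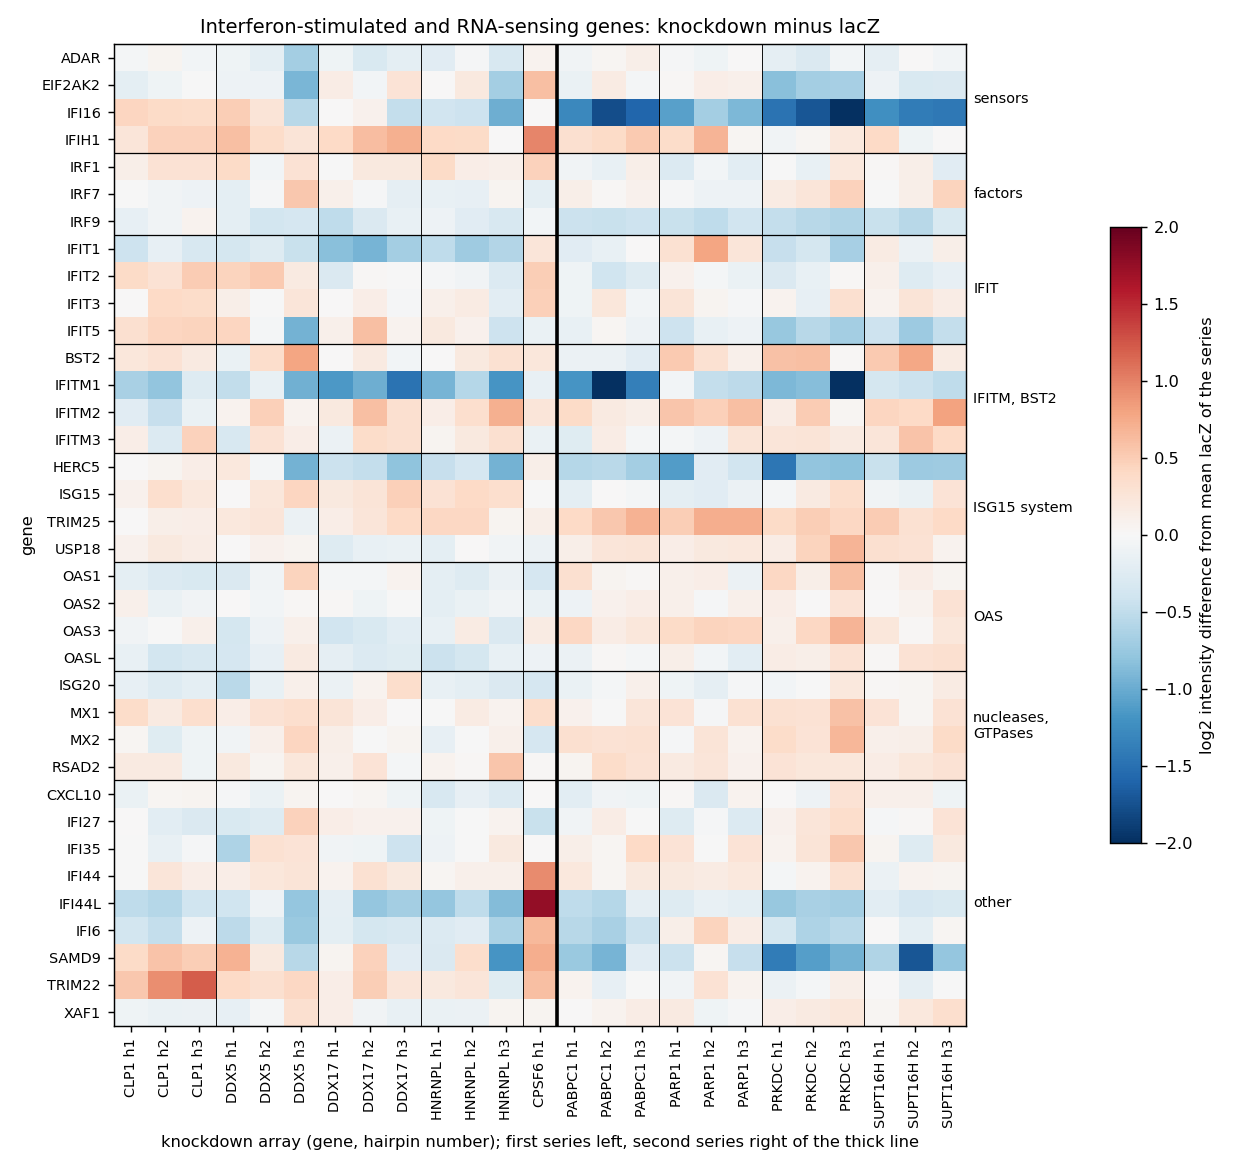
Difference of each of the 25 knockdown arrays (columns) from the mean lacZ array of its series, in log2 units, for the 36 genes (rows, grouped by role). The IFI16 row is blue in all 12 arrays of the second series, and the CPSF6 column holds the darkest red field, at IFI44L.

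Among the nucleic acid sensors, IFI16, which binds DNA and acts on STING, had the largest fall of the 288 differences. Its log2 intensity was 4.51, 4.02 and 4.21 in the 3 PABPC1 arrays, 4.72, 5.12 and 4.91 in the PARP1 arrays, 4.32, 4.09 and 3.81 in the PRKDC arrays and 4.58, 4.41 and 4.37 in the SUPT16H arrays, against 5.92 and 5.68 in the lacZ arrays. All 12 knockdown arrays lay below both lacZ arrays. IFI16 was lower by a difference of -1.56 ± 0.23 log2 with PABPC1 (SE, adjusted p = 0.000273), -1.73 ± 0.23 with PRKDC (adjusted p = 6.36e-05), -1.35 ± 0.23 with SUPT16H (adjusted p = 0.000889) and -0.89 ± 0.23 with PARP1 (adjusted p = 0.0253). The mean of the 4 knockdowns differed from lacZ by -1.38 ± 0.20 (adjusted p = 5.06e-05). The knockdown arrays, at 3.81 to 5.12, were at the level of markers of tissues that HEK293 cells are not (means of 3.93 to 5.01, single arrays of 3.63 to 5.76). The size of the fall can therefore be read only as a limit, as can that of other genes at such levels. Blood, fibroblast and endothelial markers had means of 3.58 to 6.81, a range that also holds the lacZ values of IFI16. The PARP1 call was lost without PARP1 hairpin 1 or 3 (adjusted p = 0.108 and 0.0654) and without lacZ replicate 1 or 2 (0.336 and 0.0825). The other calls of IFI16 were kept whichever array was left out. Among the first-series knockdowns IFI16 differed from lacZ by -0.59 in HNRNPL to 0.39 in CLP1 knockdown and was not called, and the difference between the series was not tested.

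None of 3 genes that act on double-stranded RNA was called higher. IFIH1, the helicase that binds long double-stranded RNA, was above lacZ in all 12 knockdown arrays of the first series, at 5.21 to 5.91 (median 5.59) against 5.20 with lacZ, but the mean difference of 0.41 ± 0.20 was not past the threshold (adjusted p = 0.403). It stood at 4.84 to 5.59 in the second series, against 4.89 and 4.94 with lacZ, and its largest difference from lacZ in any knockdown was 0.58 ± 0.22, with DDX17 (adjusted p = 0.176). EIF2AK2, the kinase that halts translation on double-stranded RNA, was at 7.79, 7.95 and 7.96 in PRKDC arrays against 8.77 and 8.49 with lacZ, a fall of -0.73 ± 0.22 (adjusted p = 0.0179), lost without lacZ replicate 1 (adjusted p = 0.166) or PRKDC hairpin 1 (0.0512). In the other 7 knockdowns it differed from lacZ by -0.37 to 0.12 and was not called. ADAR, which edits double-stranded RNA, stayed within -0.32 and 0.03 of lacZ in all 8 knockdowns and was called in none.

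Of the transcription factors, IRF9, the DNA-binding subunit of the complex that interferon activates, was lower throughout the second series. Its values were 5.70, 5.69 and 5.72 with PABPC1, 5.70, 5.63 and 5.75 with PARP1, 5.66, 5.59 and 5.53 with PRKDC and 5.69, 5.59 and 5.83 with SUPT16H, against 6.14 and 6.13 with lacZ. No knockdown array reached a lacZ array. The mean of the 4 knockdowns fell by 0.46 ± 0.11 log2 below lacZ (adjusted p = 0.00638), and each knockdown was called, at adjusted p = 0.0491 with PABPC1, 0.0438 with PARP1, 0.00507 with PRKDC and 0.0367 with SUPT16H. Without lacZ replicate 1 all 4 calls were lost (adjusted p ranged from 0.0708 with PRKDC to 0.344 with PABPC1), as was that of the mean (0.162), and without replicate 2 all but PRKDC were lost (0.144 to 0.178, and 0.0687 for the mean). The PABPC1 and PARP1 calls were lost without any 1 of their own hairpins (0.0758 to 0.132) and that of SUPT16H without hairpin 1 or 2 (0.0713 and 0.129). With 16 added to the intensities the calls with PABPC1 and PARP1 were lost too (adjusted p = 0.0599 and 0.0533), as was that of PABPC1 with each array centred on its median (0.0583). In the other series IRF9 lay between -0.31 and -0.05 of lacZ with no call. IRF1 and IRF7 were called in no comparison.

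The IFIT proteins bind the ends of foreign RNA, and IFIT1, their founding member, recognises caps that lack methylation of the first nucleotides. In the first series IFIT1 was at 4.18, 4.09 and 4.34 in DDX17 arrays, against 5.02 with lacZ, and its fall of -0.82 ± 0.18 was called (adjusted p = 0.00962, with adjusted p from 0.00112 to 0.0409 over the alternatives). With CLP1 it was at 4.61, 4.85 and 4.70, with DDX5 at 4.67, 4.76 and 4.57 and with HNRNPL at 4.51, 4.31 and 4.43. All 12 arrays thus lay below the single lacZ array, but the other 3 knockdowns and the mean of the 4 (-0.52 ± 0.16, adjusted p = 0.109) were not called. DDX17 did not differ from the other 3 knockdowns by a called amount (-0.40 ± 0.10, adjusted p = 0.0603).

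In the second series IFIT1 differed between knockdowns. It stood at 5.08, 5.57 and 5.02 with PARP1, at 4.31, 4.42 and 4.11 with PRKDC, at 4.54, 4.62 and 4.79 with PABPC1 and at 4.94, 4.66 and 4.89 with SUPT16H, against 4.77 and 4.78 with lacZ. PARP1 arrays were all above both lacZ arrays, as they were for 27% of all genes. PRKDC arrays were all below both, as they were for 27.5% of all genes. Set against the other 3 knockdowns, IFIT1 was higher by 0.63 ± 0.10 with PARP1 (adjusted p = 0.00656) and lower with PRKDC (-0.62 ± 0.10, adjusted p = 0.00916). Against lacZ the PRKDC fall of -0.49 ± 0.14 was called (adjusted p = 0.0127) and the PARP1 difference of 0.45 ± 0.14 was not (adjusted p = 0.0613). The PARP1 call was lost without hairpin 2 (adjusted p = 0.108), and the PRKDC call against the other knockdowns without hairpin 1 or 3 (0.103 and 0.101), while the PRKDC call against lacZ was lost without lacZ replicate 1 or 2 (0.0966 and 0.0638). Of the other IFIT genes, IFIT5 fell with PRKDC (5.70, 5.89 and 5.77 against 6.47 and 6.44 with lacZ, -0.67 ± 0.25, adjusted p = 0.0414), a call that was lost whichever of these 5 arrays was left out (adjusted p from 0.0517 to 0.175) and with 16 added to the intensities (0.0545). IFIT2 and IFIT3 were called nowhere.

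**Figure D3:**
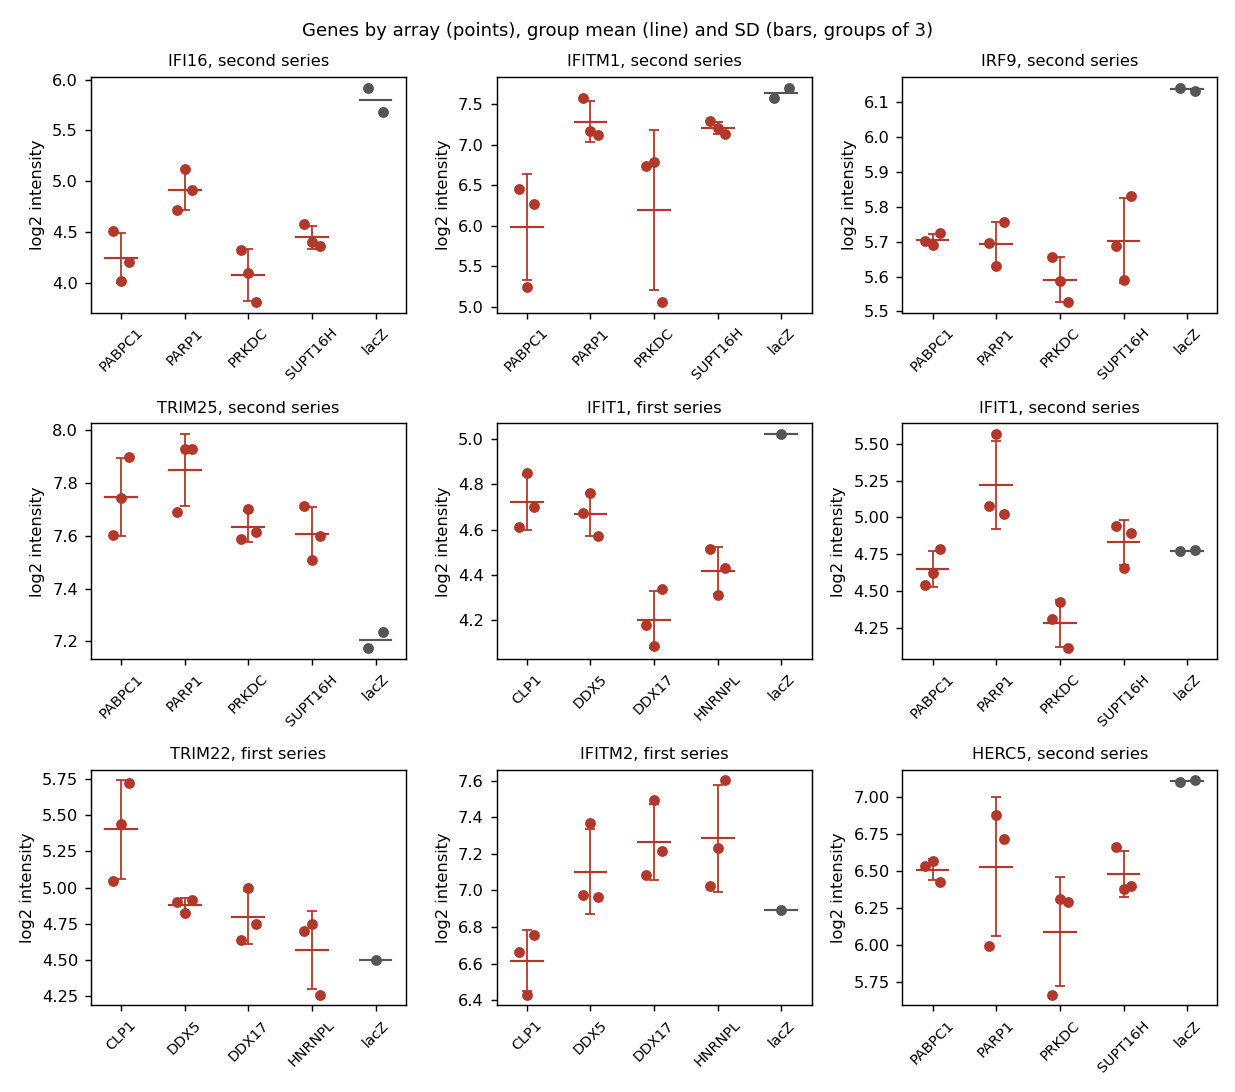
Log2 intensity of 8 genes by array (points), with knockdowns in red left of lacZ in grey, group means as lines and the SD of groups of 3 as bars; IFIT1 is drawn for both series, and each axis has its own range. The IFI16, IRF9 and HERC5 knockdown points lie below and the TRIM25 points above both lacZ points of the second series, while TRIM22 is highest in the CLP1 arrays.

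The IFITM proteins, which keep viruses from fusing with the cell membrane, did not move together. IFITM1 was at 6.45, 5.24 and 6.27 with PABPC1 and 6.74, 6.78 and 5.05 with PRKDC, against 7.58 and 7.70 with lacZ, and both falls were called (-1.65 ± 0.37, adjusted p = 0.00944, and -1.45 ± 0.37, adjusted p = 0.00748). One array of each set the spread, hairpin 2 of PABPC1 and hairpin 3 of PRKDC. With PARP1 (7.58, 7.16 and 7.12) and SUPT16H (7.29, 7.21 and 7.14) it was not called. The PABPC1 call was lost without hairpin 2 (-1.28, adjusted p = 0.0561), without lacZ replicate 1 (0.121) and without replicate 2 (0.0800), and the PRKDC call without either lacZ array (0.0740 and 0.0513). The mean of the second series was -0.97 ± 0.31 (adjusted p = 0.0333), lost without lacZ replicate 1 or 2 (0.262 and 0.195) after quantile normalization of all arrays together (0.0706) and with pooled lacZ samples (0.0681). In the first series IFITM1 lay at 6.50 to 7.82 (median 7.12) in the 12 knockdown arrays, all below the 7.97 of lacZ, and its mean difference, the largest of the 36 genes in that series, was not past the threshold (-0.80 ± 0.42, adjusted p = 0.480).

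IFITM2 was lower in CLP1 arrays than in the other knockdowns of the first series, at 6.66, 6.43 and 6.76 against a mean of 7.22 over DDX5, DDX17 and HNRNPL arrays (-0.60 ± 0.14, adjusted p = 0.0483), with lacZ at 6.89 between them. That call was lost without any 1 of the CLP1 hairpins (adjusted p from 0.119 to 0.313) and without DDX5 hairpin 2, DDX17 hairpin 2 or 3 or HNRNPL hairpin 2 or 3 (0.0559 to 0.0950), and in a fit of that series alone (0.240), after quantile normalization (0.0613), with dim genes left out (0.0623) and with a hairpin-number block (0.0595). IFITM3, whose probes cannot be assumed to tell it from its near-identical relatives IFITM1 and IFITM2, differed from lacZ by -0.05 to 0.40 and was called nowhere, as was BST2, which tethers budding virus to the cell.

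ISG15, a ubiquitin-like protein that is among the genes interferon induces most, showed no call. In the first series it was at 6.35 to 6.82 (median 6.62) in knockdown arrays against 6.35 with lacZ, and in the second at 5.79 to 6.37 (median 5.97) against 6.07 and 5.97, with differences from lacZ of -0.18 to 0.34 over the 8 knockdowns. The genes that act on ISG15 or beside it moved in both directions. HERC5, the main ISG15 ligase in human cells, was at 5.67, 6.31 and 6.29 with PRKDC against 7.10 and 7.11 with lacZ, a fall of -1.01 ± 0.27 (adjusted p = 0.00918, and 0.0849 and 0.0510 without lacZ replicate 1 or 2). All 12 second-series knockdown arrays, at 5.67 to 6.88, lay below lacZ, and their mean difference was -0.70 ± 0.23 (adjusted p = 0.0339, and 0.285 and 0.172 without lacZ replicate 1 or 2).

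TRIM25, a ubiquitin ligase that acts with the RNA sensor RIG-I, was the gene of the 36 called higher than lacZ with the most knockdowns. It was at 7.60, 7.74 and 7.90 with PABPC1, 7.69, 7.93 and 7.93 with PARP1, 7.59, 7.70 and 7.62 with PRKDC and 7.71, 7.51 and 7.60 with SUPT16H, against 7.17 and 7.24 with lacZ. The rise was 0.54 ± 0.15 with PABPC1 (adjusted p = 0.0381), 0.64 ± 0.15 with PARP1 (0.0137) and 0.43 ± 0.15 with PRKDC (0.0351), SUPT16H missed the threshold (0.40 ± 0.15, adjusted p = 0.0920), and the mean of the 4 was 0.51 ± 0.13 (0.0109). Without lacZ replicate 1 the adjusted p rose to 0.337 with PABPC1, 0.194 with PARP1, 0.180 with PRKDC and 0.226 for the mean, and without replicate 2 to 0.126, 0.0787, 0.102 and 0.0779. The PABPC1 and PARP1 calls were also lost without hairpin 2 or 3 of their own (0.0543 to 0.142) and the PRKDC call without any 1 of its hairpins (0.0541 to 0.0761). USP18, which removes ISG15 and dampens signalling at the interferon receptor, was above lacZ in all 12 second-series arrays (6.29 to 6.90 against 6.26 and 6.18) and was called with PRKDC alone (6.37, 6.66 and 6.90, 0.42 ± 0.14, adjusted p = 0.0255, and lost without PRKDC hairpin 3 or either lacZ array, at 0.108 or more).

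The OAS enzymes make the second messenger that activates RNase L on double-stranded RNA, and none of OAS1, OAS2, OAS3 and OASL was called in any comparison. OAS1 was at 4.96 to 5.71 (median 5.10) in the first series against 5.26 with lacZ, and at 4.73 to 5.45 (median 4.96) in the second against 4.90 and 4.78. Its largest difference was 0.38 ± 0.16 with PRKDC (adjusted p = 0.0626). The dynamin-like GTPases MX1 and MX2 were called with PRKDC. MX1 was at 4.92, 4.91 and 5.20 against 4.53 and 4.72 with lacZ (0.39 ± 0.13, adjusted p = 0.0261) and MX2 at 4.54, 4.44 and 4.84 against 4.18 and 4.16 (0.44 ± 0.14, adjusted p = 0.0191). Neither rise stayed past the threshold after quantile normalization over all arrays (0.20, adjusted p = 0.188, and 0.25, adjusted p = 0.0734), with pooled lacZ samples (0.195 and 0.0830), without lacZ replicate 1 (0.221 and 0.112) or without PRKDC hairpin 3 (0.0999 and 0.0843), and that of MX2 was also lost without lacZ replicate 2 (0.0878). Both genes are in the lowest quartile of signal. RSAD2 and ISG20 were called nowhere.

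Of the remaining effectors, TRIM22, a ubiquitin ligase with antiviral activity, was the only 1 of the 36 called higher in the first series. It was at 5.04, 5.44 and 5.72 in CLP1 arrays, against 4.50 with lacZ, and at 4.26 to 4.996 in the DDX5, DDX17 and HNRNPL arrays. The rise was 0.90 ± 0.20 over lacZ (adjusted p = 0.0274), and 0.65 ± 0.12 over the other 3 knockdowns (adjusted p = 0.00919). Both calls were lost without CLP1 hairpin 2 (adjusted p = 0.0815 and 0.0937) or hairpin 3 (0.108 and 0.212) and in a fit of the first series alone (0.228 and 0.166), and that over lacZ after quantile normalization (0.0522). In the second series TRIM22 was within -0.06 and 0.09 of lacZ.

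IFI6, which blocks cell death and the replication of flaviviruses, was at 7.32, 7.65 and 7.36 with PARP1, higher than in the other 3 knockdowns by 0.60 ± 0.12 (adjusted p = 0.0310). With PRKDC it was at 6.86, 6.59 and 6.67 and with PABPC1 at 6.64, 6.55 and 6.78, against 7.14 and 7.27 with lacZ, and the PRKDC fall of -0.50 ± 0.17 was called (adjusted p = 0.0274) while that of PABPC1 was not (-0.55 ± 0.17, adjusted p = 0.0537). The PARP1 call was lost without any 1 of its hairpins (0.0765 to 0.226), without PABPC1 hairpin 2 or 3 or SUPT16H hairpin 2 (0.0511 to 0.0701) and with dim genes left out (0.0522). The PRKDC call was lost without PRKDC hairpin 2 or 3 (0.0702 and 0.0567) or lacZ replicate 1 or 2 (0.108 and 0.146).

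IFI44L, a feedback regulator of the response, was at 3.77, 3.88 and 3.85 with PRKDC against 4.72 and 4.33 with lacZ, a fall of -0.69 ± 0.17 (adjusted p = 0.00563, and 0.124 without lacZ replicate 1). SAMD9, an antiviral factor, was at 4.38, 4.68 and 4.84 against 6.11 and 5.46 (-1.15 ± 0.36, adjusted p = 0.0209, and 0.217 without lacZ replicate 1 and 0.0635 without PRKDC hairpin 1). In the mean of the second series SAMD9 was at -0.77 ± 0.31 and not called (adjusted p = 0.0733). In the first series IFI44L was below lacZ in all 12 arrays, at 4.15 to 4.91 (median 4.47) against 5.01, and its mean difference of -0.54 ± 0.19 missed the threshold (adjusted p = 0.184). IFI27, IFI35, IFI44, CXCL10 and XAF1 were called in no comparison.

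Seen over a whole series, in the first 1 of the 36 genes, IFIH1, had all 12 knockdown arrays above the lacZ array (9.31% of all genes did) and 4, IFIT1, IFITM1, IFI6 and IFI44L, had all 12 below it (11.2% of all genes). In the second, USP18, TRIM25 and RSAD2 had all 12 arrays above both lacZ arrays (12.7% of all genes) and HERC5, IFI16 and IRF9 all 12 below (12.4%). limma called 0 of 36 in the mean of the first series (0.635% of all genes higher, 1.15% lower and 1.78% in all, with 4 of the 36 at an unadjusted p under 0.05) and 1 rise and 4 falls in the mean of the second (7.80% and 9.78% of all genes, 17.6% in all). In total 16 of the 36 were called in at least 1 of the 18 comparisons and 20 in none, and of all genes 41% were called in at least 1.

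Called differences between knockdowns of a series, which do not involve lacZ, were few. CLP1 had 1 rise and 1 fall among the 36 (0.483% and 0.239% of all genes, 0.722% in all). PARP1 had 2 rises (0.5% of all genes rose, 0.554% were called in all), and PRKDC 0 rises and 1 fall (0.0163% and 0.0706%), all in genes named above. For the other 5 limma called 0 of 36. Of all genes 0.038% were called with DDX5, 0.874% with DDX17 and 0.0109% with SUPT16H in either direction. With HNRNPL 0.0652% were higher and 0.0326% lower (0.0977% in all), and with PABPC1 0.0217% higher and 0.0652% lower (0.0869% in all). At an unadjusted p under 0.05 there were 3 of the 36 with DDX5, 4 with DDX17, 5 with HNRNPL, 4 with PABPC1 and 3 with SUPT16H. With CLP1, PARP1 and PRKDC there were 9, 10 and 13. The share of all genes at that level was not counted. On the wider list of 34 interferon-stimulated genes given below, 26 were higher with PARP1 (median 0.26) and 14 with PRKDC (median -0.13). Of all genes 47.7% and 56.5% were higher. Of the 34 genes 16 and 14 were at an unadjusted p under 0.05, and limma called 0.

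The CPSF6 array, of which there is 1 and therefore no test, stood apart from the other knockdowns of its series. It was the highest of the 14 first-series arrays for 10 of the 36 genes (7.90% of all genes) and more than 0.5 log2 above lacZ for 7 (6.91% of all genes), with none more than 0.5 below (3.57%). Of the 12 arrays of the other knockdowns in that series none had more than 3 of the 36 over 0.5 above lacZ. Of all genes these arrays had 4.3% to 18.03% that far above. In the second series PRKDC hairpin 3 had 6 of the 36 over 0.5 above lacZ (19.53% of all genes). DDX5 hairpin 3 was the highest first-series array for 8 of the 36, but for 32.68% of all genes. The other 11 were the highest for 0 to 3 (1.52% to 10.4% of all genes).

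IFI44L was at 6.77 in the CPSF6 array, against 4.15 to 4.91 in the 12 other knockdown arrays and 5.01 with lacZ. The sensor IFIH1 was at 6.17, against 5.21 to 5.91 and 5.20 with lacZ, and IFI44 at 4.56, against 3.60 to 3.92 and 3.61. IFI6 was at 8.22, against 6.83 to 7.47 and 7.57, and EIF2AK2 at 9.77, against 8.25 to 9.44 and 9.17. For these 5 genes the CPSF6 array lay above every other array of the series. SAMD9 (7.13 against 5.22 to 7.10 and 6.41) and TRIM22 (5.10 against 4.26 to 5.72 and 4.50) were also over 0.5 above lacZ, and SAMD9, IFIT1, IFIT3, IRF1 and ADAR were the other genes highest in the array.

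Other members of the programme did not follow. ISG15 (6.35), OAS1 (4.93), MX2 (4.16) and IFI27 (4.998) were at their lowest of the 14 arrays with CPSF6, against 6.35, 5.26, 4.49 and 5.45 with lacZ. MX1, at 5.18 against 4.83 with lacZ, was inside the range of the other knockdowns. Of the 10 genes highest in the CPSF6 array, 8 held the ISRE motif printed above, and of the 18 other genes with a promoter sequence 12 did.

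**Figure D4:**
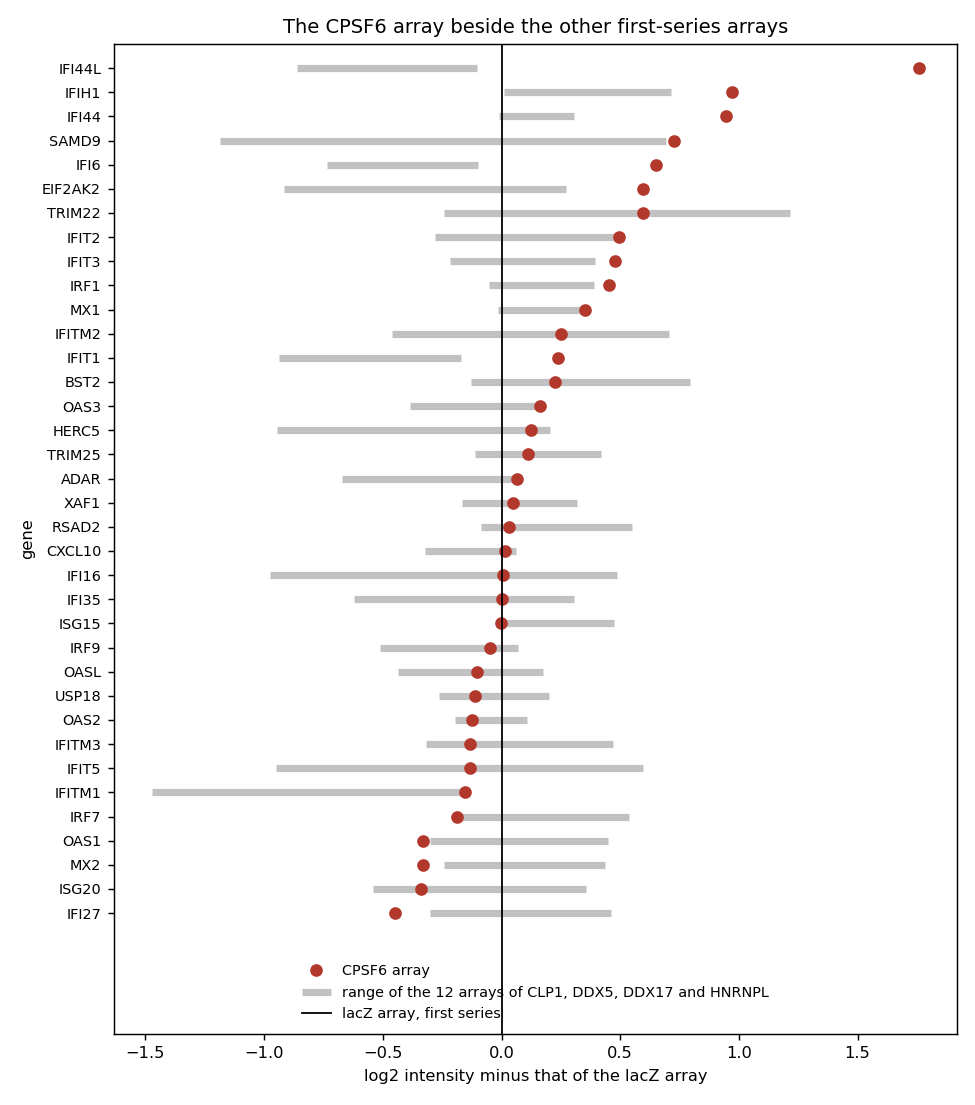
Log2 intensity of the 36 genes in the CPSF6 array (red points) and the range of the 12 other knockdown arrays of the first series (grey bars), both minus the lacZ array of that series (black line at 0). IFI44L, IFIH1, IFI44, IFI6 and EIF2AK2 lie right of the bars, and OAS1, MX2 and IFI27 left of them.

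A wider list of other interferon-stimulated genes, 34 of 41 measured, showed the same array at the top. The CPSF6 array was the highest of 14 for 13 of the 34 (7.90% of all genes). The 12 other knockdown arrays were the highest for 0 to 4 (1.52% to 32.68% of all genes). The median difference of the CPSF6 array from lacZ was 0.30, against -0.18 to 0.21. It was over 0.5 above lacZ for 14 of the 34 (6.91% of all genes), and the other arrays for 1 to 12 (4.3% to 18.03% of all genes). Other arrays, too, were over their own share of all genes on this list. CLP1 hairpin 3 had 12 (9.02% of all genes), and CLP1 hairpin 2 and HNRNPL hairpin 2 had 8 each (7.79% and 7.15%). DDX5 hairpin 3 had 2 (18.03%). NMI and DDX60 had the largest differences of the list from lacZ (1.515 and 1.207) but were inside the range of the other knockdowns. NMI was at 5.54 against 4.65 to 5.59, and DDX60 at 5.88 against 4.34 to 5.92. HERC6, a relative of HERC5, was at 6.78 with CPSF6 against 5.38 to 6.39 and 5.61 with lacZ, PLSCR1, a phospholipid scramblase, at 6.75 against 5.58 to 6.55 and 5.75, and PSMB9, an immunoproteasome subunit, at 6.18 against 5.29 to 5.61 and 5.43. Among the ligands IFNB1 was at 3.89 with CPSF6, against 3.69 to 4.17 and 3.75 with lacZ, and IFNA2 at 4.12, against 3.82 to 4.01 and 4.01. Among the sensors and adaptors outside the 36 genes 1 of 16, RIGI, was highest in the array, at 5.73 against 4.82 to 5.65 and 5.69 with lacZ.

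Genes around the programme were followed as lists in the 8 knockdowns with 3 hairpins, and their counts are to be read against the 14.1% of all second-series pairs called, most of them with PRKDC. Of 7 measured interferons and receptors 0 were called in the first series by limma, and 1 rise and 3 falls were called over the 28 pairs of the second (14.3%), 3 of the 4 with PRKDC. IFNAR1, a chain of the type I interferon receptor, was lower with PRKDC (-0.90 ± 0.20, adjusted p = 0.00321) and SUPT16H (-0.97 ± 0.20, adjusted p = 0.00391), and IFNB1 rose with PRKDC by 0.28 ± 0.09 (adjusted p = 0.0234). The signal of IFNB1 is low, at 3.69 to 4.17 in the first-series knockdown arrays. GCG, a marker of another tissue, rose about as much with PRKDC (0.29 ± 0.09, limma adjusted p = 0.0203). With PRKDC 30.47% of the genes in the lowest quartile of signal were called higher. Of 16 sensors and adaptors there were 1 rise and 4 falls in the second series (7.81% of 64 pairs, 4 of the 5 with PRKDC), among them TBK1, the kinase that activates IRF3, with PRKDC (-1.13 ± 0.23, adjusted p = 0.00204) and SUPT16H (-0.76 ± 0.23, adjusted p = 0.0407). Of 9 genes of JAK-STAT signalling there were 1 rise and 4 falls (13.9% of 36 pairs, 4 of the 5 with PRKDC), and PIAS1, a SUMO ligase, was lower with PRKDC and PABPC1 (-1.59 ± 0.33, adjusted p = 0.00225, and -1.11 ± 0.33, adjusted p = 0.0449).

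The wider list of interferon-stimulated genes had 3 rises in the first series, all of NMI, a partner of STAT proteins, with CLP1 (1.14 ± 0.27, adjusted p = 0.0342), DDX5 (1.11 ± 0.27, adjusted p = 0.0437) and HNRNPL (1.08 ± 0.27, adjusted p = 0.0332). The single lacZ array, at 4.03, lay below all other arrays of the series for NMI (4.65 to 5.59). In the second series the list had 8 rises and 9 falls over 136 pairs (12.5%), 13 of the 17 with PRKDC. LGALS3BP, a secreted glycoprotein, rose with PABPC1, PARP1 and PRKDC (0.70, 0.81 and 0.59), and APOBEC3B, a DNA-editing cytidine deaminase, fell with PABPC1 and PRKDC (-1.42 and -1.58). Of 14 NF-kB targets 2 rises were called, with PRKDC (3.57% of 56 pairs). Among 15 genes that handle double-stranded RNA 1 rise was called in the first series, of the RNase H subunit RNASEH2B with CLP1 (1.04 ± 0.21, adjusted p = 0.0137), and 7 falls in the second (11.7% of 60 pairs, 5 of the 7 with PRKDC), 3 of them of the mitochondrial helicase SUPV3L1 (with PARP1, PRKDC and SUPT16H, -1.04, -1.39 and -1.05).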

How the data were processed

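RNA of 28 HEK293 samples, amplified with random primers, was hybridised to Affymetrix Human Gene ST1.0 arrays. The deposited values are probeset intensities on the linear scale, which the authors made by robust multi-array averaging in aroma.affymetrix, and array medians of 61.49 to 74.01 in the first and 54.53 to 58.34 in the second series show that the series were normalized apart. No detection calls were used, so dim genes were not told apart from silent ones. Of 33252 probesets, 19460 had exactly 1 gene symbol, and the probeset with the highest mean stood for a gene. The analysis used their log2, nothing being added first.

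A linear model of the 28 arrays in 11 groups, with lacZ a group per series, was fitted with limma 3.58.1 (R 4.3.3), its variances moderated along the mean intensity (17 residual and 8 prior df), with Benjamini-Hochberg adjustment over all genes. Hairpins are different sequences in separate infections. The p-values against lacZ in the first series rest on 1 control array and on the spread of the other groups. The 8 comparisons share their control arrays. Precision is limited by how few arrays there are.

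The genes and lists were chosen with earlier results of these data known. Values are given for each gene called in any comparison, for the 3 with the largest difference in each mean contrast and for named sensors and effectors. The CPSF6 array and the genes of the wider lists shown beside it were chosen after their values were seen. In simulated data on 18417 genes, the CLP1 comparison found 62% of genes shifted by 1 log2 and 100% of those shifted by 2, and the PABPC1 comparison 79% and 98%. Alternatives were other normalizations, a pseudocount of 16, a floor on the mean, no variance trend, averaged probesets, single-series fits, pooled lacZ samples, a hairpin-number block and leaving out each array. Promoter sequences are from RefSeq (GRCh38.p14). Python 3.11.15 with numpy 2.4.6, pandas 2.3.3 and matplotlib 3.10.9 was used for tables and figures.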

Additional observations from a re-analysis of the deposited data

Results flagged for a closer look

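In 5 cases a gene differed between the knockdowns of a series by a test of the difference itself. With CLP1, TRIM22 was higher than with DDX5, DDX17 and HNRNPL by 0.65 log2 (limma, adjusted p = 0.00919), and IFITM2 was lower (-0.60, adjusted p = 0.0483). With PARP1, IFI6 (0.60, adjusted p = 0.0310) and IFIT1 (0.63, adjusted p = 0.00656) were higher than with PABPC1, PRKDC and SUPT16H, and IFIT1 was lower with PRKDC (-0.62, adjusted p = 0.00916).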

How the results depend on the processing

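Of 35 calls of single genes, 5 were kept in all alternatives in which the gene was tested (the floor on the mean leaves both genes out): the falls of IFI16 with PABPC1, PRKDC and SUPT16H and in the mean of the second series, and that of IFIT1 with DDX17. Over 516 alternatives of these calls 110 lost the call and 0 turned its direction. Of 28 calls against the second-series lacZ arrays, 24 were lost without lacZ replicate 1 and 19 without replicate 2, settings that leave 1 control array, which is assumed to vary like the other groups.

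Counts of the 36 genes called moved as follows. With genes of a mean under 6 (dim genes) left out, fewer than the 36 were tested. TRIM22, IFIT1 and IFI16 were among those not tested, so counts under this setting do not show that their calls were lost. Against lacZ, CLP1 gave 0 in a fit of its series alone, after quantile normalization and with genes of a mean under 6 left out, and DDX17 0 with those genes left out. PRKDC gave 8 with them left out, and SUPT16H 6 in its series alone, 4 after quantile normalization, 1 with dim genes left out and 4 with pooled lacZ samples. Pooled lacZ samples gave 1 for HNRNPL and 2 for the mean of the first series, and the mean of the second series gave 9 in its series alone. Against the other knockdowns, CLP1 gave 0 in its series alone and with dim genes left out and 1 after quantile normalization, PABPC1 1 after quantile normalization, PARP1 4 alone and 0 with dim genes left out, and PRKDC 6 alone, 2 after quantile normalization and 0 with dim genes left out. With the hairpin number as a replicate block CLP1 gave 1, and the other counts stayed within 1.5 times. Deviations of same-numbered arrays of different genes correlated at 0.0219 on average, and those of differently numbered arrays at -0.0043. Single same-numbered pairs ranged from -0.575 to 0.833, so some of them deviated alike.

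Leaving out 1 array at a time gave 0 to 1 for CLP1, 1 for DDX17, 0 for DDX5 and HNRNPL, 1 to 3 for PABPC1, 0 to 1 for PARP1, 1 to 12 for PRKDC, 1 to 2 for SUPT16H, 0 for the mean of the first and 1 to 6 for that of the second series against lacZ. Against the other knockdowns it gave 0 to 6 for CLP1 (6 without DDX5 hairpin 1), 0 to 1 for DDX5, 0 to 1 for DDX17, 0 to 2 for HNRNPL, 0 to 2 for PABPC1, 0 to 2 for PARP1, 0 to 1 for PRKDC and 0 for SUPT16H. The cause of these moves was not tested. For the CPSF6 array, alternatives chosen after seeing the data gave 10 to 12 genes at their highest and 5 to 8 over 0.5 above lacZ, all within 1.5 times of 10 and 7.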
